A study of Strongylocentrotus purpuratus with 17 samples.

Results

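The elements compared here are the transcriptional regulatory elements listed for purple sea urchin embryos (Strongylocentrotus purpuratus) at 12 h and at 20 h of development. All 30570 elements of the 12 h list and all 37796 of the 20 h list were taken. An element was called kept when it overlapped an element of the other list by at least 1 bp on the same scaffold, lost when it stood in the 12 h list alone, and new when it stood in the 20 h list alone. Merging overlapping elements of both lists gave 49518 regions, out of 75451 when the 8 h and 72 h lists were merged in as well. Of the 49518 regions, 18159 were kept, 12179 were lost and 19180 were new.

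The study measured nascent transcription by PRO-seq, in which RNA polymerases engaged on DNA add biotin-labelled nucleotides in isolated nuclei and the labelled RNA is sequenced. The 12 h group held 4 libraries from 3 biological replicates and the 20 h group 5 libraries from 4, all of wild genotype and grown at 15 °C. Their titles carry the stage, while the tissue label of every library names an 8 hour embryo. The 8 h list (2 libraries, 1 biological replicate) and the 72 h list (2 libraries, 2 biological replicates) were used to ask where else an element had been called. The 8 h list also served to place genes on scaffolds, so all results on genes rest on it too.

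Promoters and enhancers in use are transcribed outward in both directions, and the dREG classifier finds them from that paired signal without being told where genes lie. An enhancer is a stretch of DNA that raises transcription of a gene from a distance, and genes for regulators of development often have many of them. In this embryo the interval studied is one in which the early territories (skeleton-forming mesenchyme, other mesoderm, endoderm, ectoderm, the apical neural plate) run separate regulatory programmes. Each list pools the libraries of its stage, so no value has a replicate error, no test between stages was possible and no p-value is given. Intervals are 95% intervals for counting error alone, and elements close together are not independent. The sequencing depth behind each list is unknown, and the 20 h list is the longer one.

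Most of the 12 h elements persisted, and the 20 h list was made up about equally of persisting and new elements. Of the 12 h elements 18391, or 60.2% (Wilson interval 59.6 to 60.7), were kept. Of the 20 h elements 18616, or 49.3% (48.7 to 49.8), were kept. Kept elements were wide, so they took up more of the listed sequence than their number: 68.3% of the 12 h length and 56.7% of the 20 h length. Lost elements covered 7.34 Mb and new elements 11.8 Mb.

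Lost and new elements resembled each other in width and were both narrower than the kept ones. Kept elements had a median width of 770 bp at 12 h (exact binomial interval 760 to 780) and 740 bp at 20 h (740 to 750). Lost elements had a median of 560 bp (550 to 560) and new elements one of 570 bp (560 to 570). The ratio of kept to lost was 1.38 and that of kept to new 1.30. Elements of 1000 bp or more made up 29.3% of the kept and 4.09% of the lost elements at 12 h, and 28.0% of the kept and 4.97% of the new elements at 20 h.

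Width graded the chance of being called at the other stage over its whole range at 12 h, and mainly above 700 bp at 20 h. At 12 h, 31.4% of elements under 500 bp were kept (interval 30.2 to 32.6), 49.4% of those from 500 to under 700 bp, 72.5% from 700 to under 1000 bp, 90.4% from 1000 to under 1500 bp and 96.6% of those of 1500 bp or more (95.3 to 97.5). At 20 h the same classes were kept in 33.2%, 37.7%, 58.7%, 83.2% and 92% of cases. Elements under 500 bp were kept at like shares at both stages, while in each wider class the kept share was lower at 20 h than at 12 h.

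**Figure D1:**
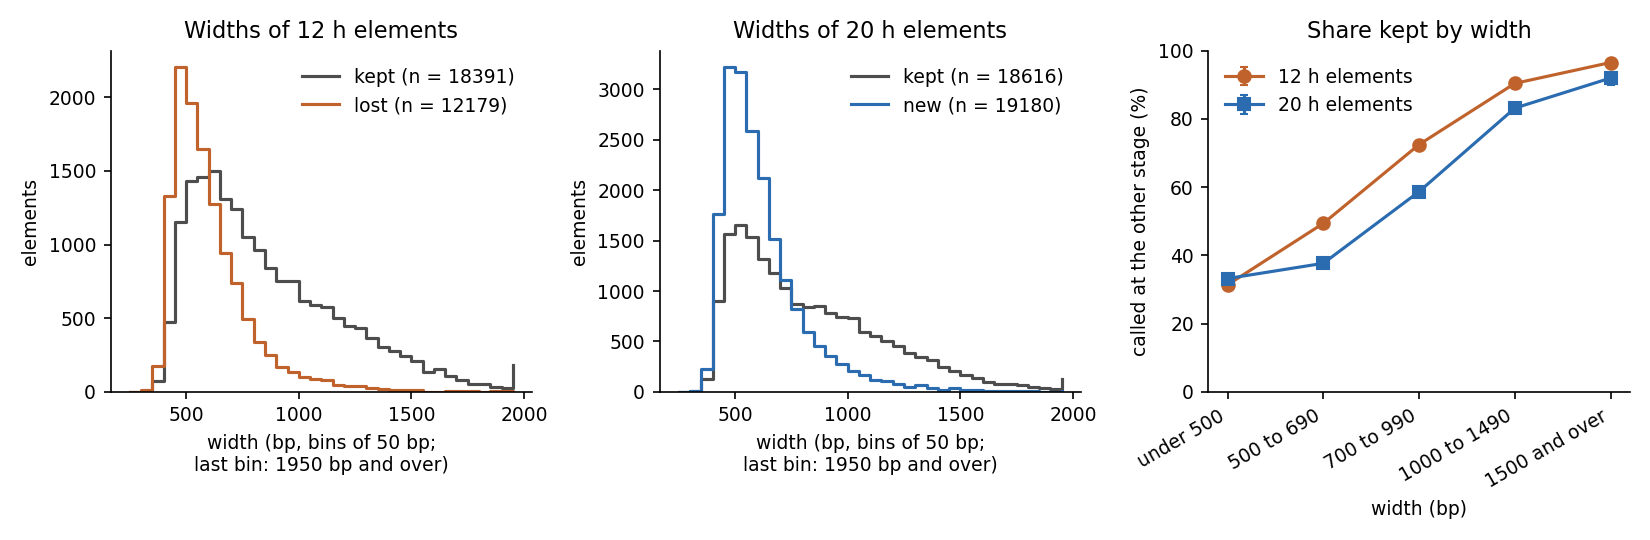
Left and middle, number of elements by width in bins of 50 bp for kept and lost elements of the 12 h list and for kept and new elements of the 20 h list; right, share of elements called at the other stage by width class, with Wilson 95% intervals. Lost and new elements peak near 500 bp while kept elements have a long tail, and the kept share goes from 31.4% to 96.6% at 12 h and from 33.2% to 92% at 20 h.

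Paired kept elements mostly overlapped broadly but seldom shared their borders. They overlap by definition, and an element that had moved off would count as lost and new, so near midpoints are no evidence of staying in place. In 17516 cases 1 element of the 12 h list met 1 element of the 20 h list. Their midpoints lay a median of 65 bp apart, and 90% of pairs lay within 235 bp. In 92.5% of the pairs at least 50% of both elements overlapped and in 23.4% at least 90% did, whereas only 44 pairs had identical borders. The 20 h partner was narrower in 53.8% of pairs, wider in 44.1% and equal in 2.15%, with a median width ratio of 0.973 (quartiles 0.814 and 1.15). A 12 h element met several 20 h elements in 452 cases, and a 20 h element met several 12 h elements in 229.

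Few lost or new elements were near misses of an element on the other list. Of the lost elements 193, or 1.59%, had a 20 h element within 100 bp, and 6.91% had one within 500 bp. Of the new elements 1.18% had a 12 h element within 100 bp and 6.02% within 500 bp. The nearest element of the other list lay a median of 7920 bp away for lost and 7170 bp away for new elements.

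New elements arose closer to the standing elements than the lost ones had been. The median gap to the nearest kept element of the same list was 10500 bp for new elements (interval 10210 to 10770) and 14910 bp for lost elements (14420 to 15470). Kept elements lay a median of 8980 bp from the next kept element at 20 h and 9410 bp at 12 h. A kept element lay within 5 kb of 31.5% of the new and 26.5% of the lost elements. Isolated positions, more than 50000 bp from any kept element, held 11.5% of the new and 19.3% of the lost elements. Width hardly followed this distance: new elements with gaps under 1000 bp had a median of 560 bp and those beyond 50000 bp one of 550 bp, and lost elements had 570 and 540 bp.

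The elements farthest from any kept one were narrow to middling in width. A new element of 630 bp inside the lncRNA gene LOC115920941 (NW_022145594.1, 16043611 to 16044240) lay 530060 bp from a kept element, and it had been called at 8 h. A lost element of 720 bp (NW_022145603.1, 33021 to 33740) lay 715330 bp from one and 618 bp from LOC115925356, and it too had been called at 8 h. The next farthest were a new element of 430 bp, 40846 bp from LOC105445984, and a lost one of 470 bp, 2235 bp from LOC115928121, and neither had an 8 h call.

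New regions kept company with new regions. The nearest other region of a new region was itself new in 51.3% of cases (interval 50.6 to 52.0), where 38.7% of all regions were new. The nearest other region of a lost region was lost in 34.4% (33.5 to 35.2), where 24.6% of all regions were lost. New and lost regions were neighbours less often than their numbers: the nearest region of a new region was lost in 16.3% and that of a lost region was new in 27.9%. Neighbours of kept regions were 40.6% kept, 24.2% lost and 35.2% new, where 36.7% of all regions were kept. With the 20 h list cut to its 30570 widest elements, so that both lists were equally long, 32.1% of regions were new and 32.3% lost, and like neighbours were 47.2% for new and 43.0% for lost regions.

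**Figure D2:**
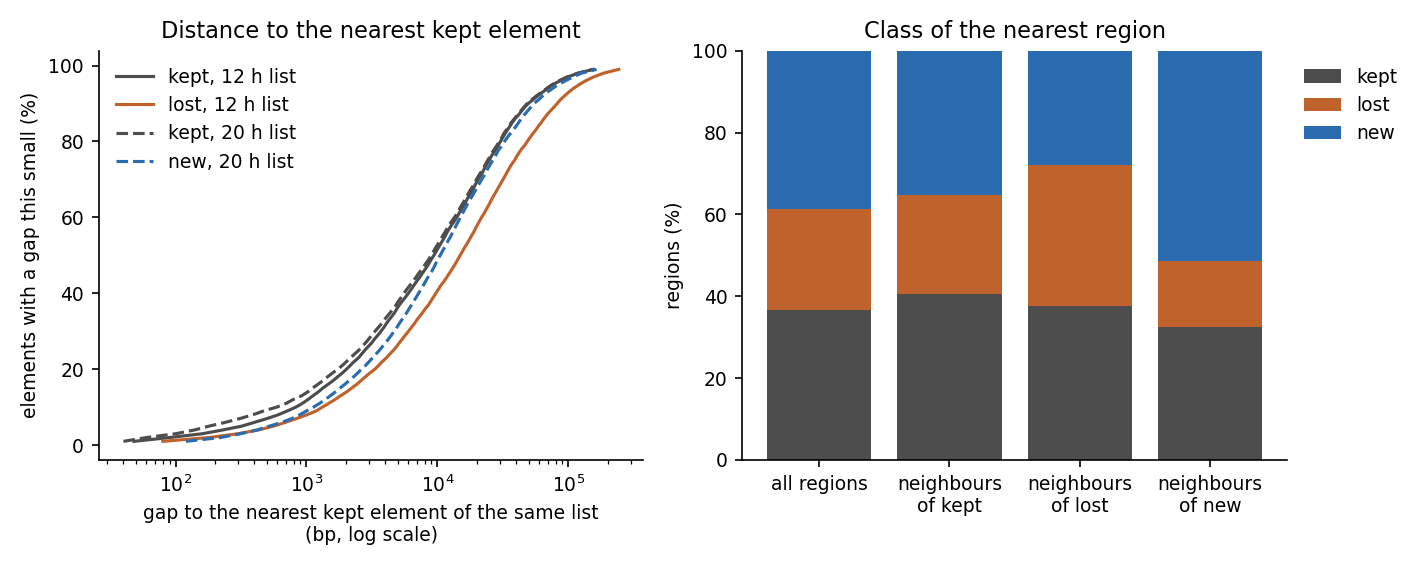
Left, cumulative share of elements by gap to the nearest kept element of the same list, on a log axis in bp; right, class of the nearest region for the neighbours of kept, lost and new regions, with the make-up of all regions at the left. Lost elements lie farthest out, with a median gap of 14910 bp, and new regions have a new neighbour in 51.3% of cases.

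Clusters, defined as at least 3 regions joined by gaps of at most 5 kb, held more new than lost regions. There were 4495 clusters with 18589 regions, 37.5% of all. They held 44.7% of the new regions (44.0 to 45.4), 37.1% of the kept (36.4 to 37.8) and 27.0% of the lost (26.2 to 27.8). Regions with no other region within 5 kb were 32.8% of the new, 37.6% of the kept and 47.5% of the lost.

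The balance of new to lost moved with cluster size. Among 18909 regions standing alone there were 6300 new and 5788 lost, a ratio of 1.09. Clusters of 3 to 4 regions had 4743 new and 2328 lost, a ratio of 2.04, and those of 5 to 7 had a ratio of 3.72. The 238 clusters of 8 or more regions, with up to 32 each, held 1294 new and 276 lost, a ratio of 4.69. The kept share stayed between 35.9% and 38.3% in every size class, while the lost share went from 30.6% to 11.3% and the new share from 33.3% to 52.8%. By content, 37.4% of the clusters mixed kept and new regions without a lost one, 23.9% held all 3 classes, 13.9% kept and lost and 2.22% lost alone, and 496 held new regions alone.

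**Figure D3:**
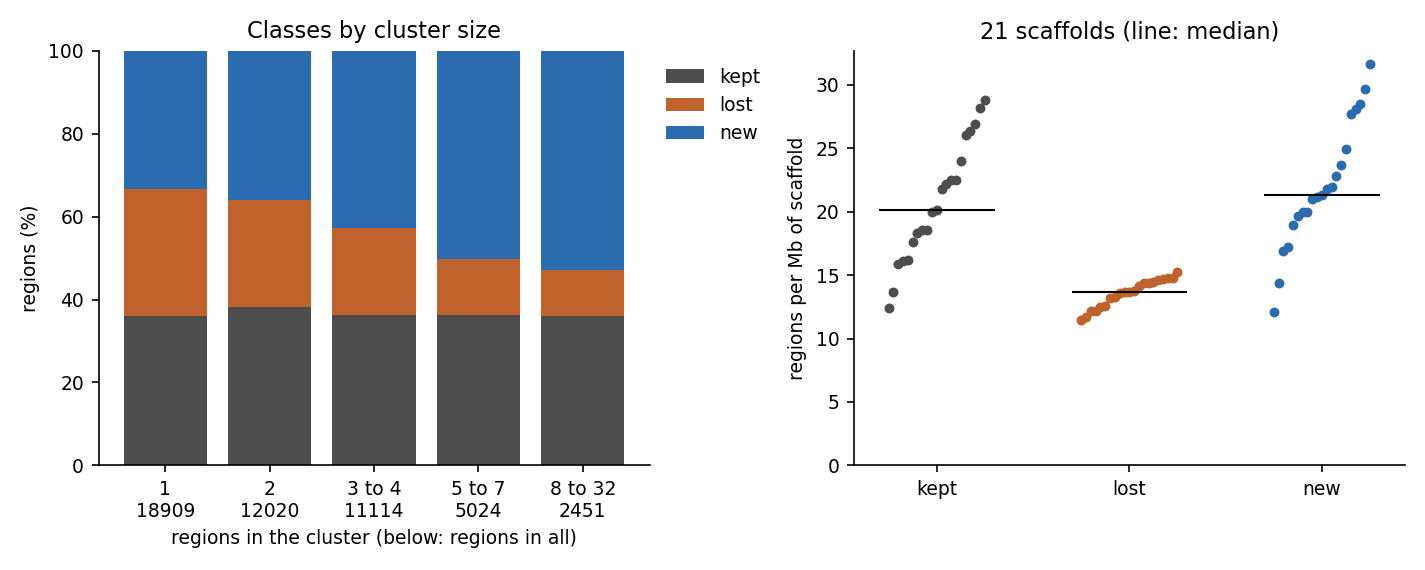
Left, make-up of regions by the number of regions in their cluster (gaps of at most 5 kb), with the number of regions in each class under the axis; right, regions per Mb on each of 21 large scaffolds, each point a scaffold and the line the median. The kept share is flat across cluster sizes while the new share is higher and the lost share lower in larger ones, and lost regions span 11.4 to 15.2 per Mb where new ones span 12.1 to 31.7.

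Lost regions were spread more evenly over the genome than kept or new ones. On the 21 scaffolds with at least 500 elements at 12 h, which held 93.0% of the 12 h and 94.5% of the 20 h elements, lost regions ran at 11.4 to 15.2 per Mb, a 1.33-fold range. Kept regions ran at 12.4 to 28.8 per Mb, a 2.32-fold range, and new regions at 12.1 to 31.7 per Mb, a 2.62-fold range. New regions outnumbered lost ones on 20 of 21 scaffolds. The exception was NW_022145606.1 with a ratio of 0.959, and the highest ratio, 2.71, was that of NW_022145611.1. The share of 12 h elements kept was lowest and highest on these same scaffolds, at 49.96% and 70.95%.

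In 819 windows of 1000000 bp the count of new regions followed that of kept regions (Spearman rho 0.741), and the count of lost regions did so less (rho 0.298); the windows share 1 pair of lists, so these are descriptions. New outnumbered lost in 608 windows and lost outnumbered new in 190. The window with the most new regions, 81 new beside 30 kept and 9 lost, covered 31000001 to 32000000 of NW_022145611.1. Of its 34 genes 1 had a symbol other than a locus number, FoxA, a forkhead regulator of endoderm. The stretch of FoxA and 10 kb either side held 6 of the 81. The next window, with 65, was on NW_022145612.1 (20000001 to 21000000) and held ABCC9a. A window with 64 new regions (NW_022145602.1, 7000001 to 8000000) held the spicule matrix genes SM50, SM37, PM27 and SM29. Another with 64 (NW_022145614.1, 10000001 to 11000000) held SPEC1 and spec2c, calcium-binding protein genes of the aboral ectoderm. One with 62 (NW_022145601.1, 15000001 to 16000000) held Hes and ano7, and one with 60 (NW_022145605.1, 26000001 to 27000000) held the T-box gene Tbx2/3. These windows held 25 to 50 genes each, and only 4.18% of the genes placed on scaffolds have a symbol other than a locus number. Among protein-coding genes 249 of 24774 have one. The window with the most lost regions, 34 beside 31 kept and 27 new, lay on NW_022145597.1 (27000001 to 28000000). It held 47 genes, none with such a symbol.

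What an element had been at 8 h differed between the classes. An 8 h element overlapped 90.5% of the kept regions (interval 90.01 to 90.87), 56.9% of the lost (56.0 to 57.8) and 33.4% of the new (32.7 to 34.0). So 6397 regions were listed at 8 h and at 20 h but not at 12 h. A 72 h element overlapped 20.6% of the kept (20.0 to 21.2), 0.714% of the lost (0.580 to 0.880) and 1.68% of the new regions (1.51 to 1.88). The 8 h list was the longest, with 56158 elements, and the 72 h list the shortest, with 4425. The shares at these stages are bounded by list length, so a low 72 h share cannot be read as loss of elements by 72 h. Regions called at neither other stage were 9.16% of the kept, 43.0% of the lost and 65.9% of the new.

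To ask which genes lay beside them, genes of the RefSeq table were placed on 21 scaffolds that held 46381 of the 49518 regions. The placement is an inference from the table's order and the elements. A gene-end region overlapped 500 bp either side of an end of an annotated gene; the table gives no strand, so start and stop are not told apart. Other regions were inside or between genes by their midpoint.

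About as many kept regions lay at gene ends as away from them, while most lost and new regions lay away from them. Gene ends held 50.3% of the kept (49.5 to 51.0), 17.3% of the lost (16.64 to 18.04) and 15.7% of the new regions (15.2 to 16.2). Insides of genes held 23.2% of the kept, 41.3% of the lost and 44.5% of the new, and 26.5%, 41.4% and 39.8% lay between genes. The median gap to the nearest gene end was 468 bp for kept, 3841 bp for lost and 4959 bp for new regions. Seen from 12 h, 81.7% of gene-end regions were kept (81.0 to 82.4), against 46.5% inside and 49.6% between genes. Seen from 20 h the same shares were 75.1%, 32.9% and 38.6%.

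Gene-end elements were more often kept than others of the same width. Among 12 h elements of 500 to under 700 bp, 64.9% at gene ends were kept (63.0 to 66.7) and 45.0% elsewhere (43.9 to 46.1). Among 20 h elements of that width the shares were 58.6% (56.9 to 60.4) and 31.3% (30.5 to 32.2). In the class of 1000 to under 1500 bp they were 96.5% and 77.9% at 12 h and 93.9% and 63.9% at 20 h. The same order held in each of the 5 width classes at both stages.

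The balance of lost and new regions differed with the kind of gene at which they lay. At protein-coding genes 7975 regions were kept, 1551 lost and 2584 new. At tRNA genes, which RNA polymerase III transcribes, 288 were kept, 114 lost and 40 new. At snRNA genes, which encode RNAs of the spliceosome, 35 were kept, 21 lost and 7 new, and at pseudogenes 27, 26 and 15. At lncRNA genes the numbers were 372, 229 and 215, and at miRNA genes 3, 1 and 6. Lost regions thus outnumbered new ones at tRNA, snRNA, pseudogene and, by a little, lncRNA ends, and new outnumbered lost at protein-coding and miRNA ends. Elements reached the ends of 51.6% of the 954 placed tRNA genes at 12 h and of 41.7% at 20 h, and those of 23.8% and 16.4% of 256 snRNA genes. Of the 114 lost tRNA regions 95 had been called at 8 h. Genes of these families exist in near-identical copies, and how reads that fit several copies were treated is not given here.

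For single genes, elements were counted by midpoint over the gene and 10 kb beyond each end, called the neighbourhood. Over 24774 protein-coding genes the median difference between the stages was 0, with more elements at 20 h for 8302 genes (33.5%), fewer for 5583 (22.5%) and the same number for 10889. A gain of 3 or more was seen at 7.14% of them and a fall of 3 or more at 1.59%. When the 20 h list was cut to the length of the 12 h list, more elements were counted at 6171 genes and fewer at 7499. That cut removed narrow elements from the 20 h list alone, so length and width are not told apart. With only elements of at least 500 bp in both lists, 7159 genes had more and 5573 fewer. Which direction prevails over all genes thus depends on how the lists are cut. Long genes had more regions of every class than short ones, but their neighbourhoods are also longer and no count per kb was made. Genes of 23974 bp or more averaged 1.59 new, 0.801 lost and 1.47 kept regions. Those of up to 3980 bp averaged 0.428, 0.365 and 0.529. Both a new and a lost region lay near 4640 genes, and at 2134 genes the counts were equal although regions had been exchanged.

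Genes with known roles in the early embryo, counted by lists matched by symbol, mostly had more elements at 20 h. In whole embryos a change in the number of cells of a type and a change of transcription per cell cannot be told apart. The lists and their members were chosen with earlier results of these data known. The shares here and for the lists below are therefore descriptions and no independent support. The lists held far more symbols than were placed. Placed were 17 of 51 skeletogenic, 3 of 23 other mesoderm, 12 of 37 endoderm and 19 of 41 ectoderm symbols. For apical and neural genes it was 6 of 31, for early zygotic 12 of 29 and for signalling 9 of 49. Homeobox, forkhead and Sox genes had 25 of 77, immune 8 of 32 and gamete 15 of 36. For the histone and cell cycle lists it was 3 of 13 and 4 of 32. All counts below are of placed genes. The 8 developmental lists placed 68 different genes. Of these 52, or 76.5%, had more elements at 20 h, against 33.5% of protein-coding genes, and 5, or 7.35%, had fewer, against 22.5%. A gain of 3 or more was seen at 36 of the 68, or 52.9%, against 7.14%. Only genes with a symbol could be matched to a list, and the 249 protein-coding genes with one lay above the rest: 51.8% of them had more elements, 21.7% fewer, and 21.3% gained 3 or more. In the longest of 5 length classes 47.2% of protein-coding genes had more and 16.7% gained 3 or more. The listed genes' median difference was 3 elements and that of all protein-coding genes 0. Their neighbourhoods held 138 kept, 39 lost and 227 new regions, with regions shared by neighbouring genes counted more than once. Of the 227 new ones 71, or 31.3%, overlapped an 8 h element, close to the 33.9% over all protein-coding genes. At 42 of the 68 the 12 h count was below both the 8 h and the 20 h count. That was so at a smaller share of all protein-coding genes, 6210 of 24774. It was not counted over the genes with a symbol alone. The 12 h list was also the shortest of these, with 30570 elements against 56158 at 8 h and 37796 at 20 h. A lower 12 h count is thus bound up with list length. More elements at 20 h than at 8 h were counted at 32 of the 68 and at 4253 of the 24774. With the 20 h list cut to equal length, 48 of the 68 had more and 8 fewer.

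Skeletogenic genes gained at 13 of 17 and fell at none, with 59 new regions beside 22 kept and 10 lost. Of the 59 new regions 16 had been called at 8 h. P16, which encodes a membrane protein of skeleton-forming cells (NW_022145615.1, 10667000 to 10669900), had no element at 12 h and 7 at 20 h. Among them 2 touched its ends, 10666201 to 10667260 and 10669581 to 10670260, and only the first of these had been called at 8 h. SM29 and PM27, which encode spicule matrix proteins, went from 2 to 8 and from 1 to 6 elements, and their 3 earlier elements were all lost by the overlap rule. One of them, at SM29 (7912011 to 7912430), lay within 200 bp of new elements on both sides. SM37, another spicule matrix gene, went from 0 to 5, and its neighbourhood overlaps that of SM50 (2 kept, 1 lost, 4 new). COLP4alpha, a collagen gene, kept its 5 elements and added 7. Its neighbourhood overlaps that of the collagen gene COLP3alpha (5 kept, 3 new), so some regions are counted for both. At Alx1, the homeobox gene at the head of the skeletogenic programme, 1 region was kept, 1 lost and 5 were new, the 5 new ones all inside the gene and none of them called at 8 h. Above its upper end, 33100 bp away at the near edge, lay 16 new regions in a row over 122230 bp (NW_022145603.1, 14745421 to 14867650), across the unnamed gene LOC580069. Of these 16 regions 7 had been called at 8 h. P16, PM27, SM29 and SM37, 4 of the 17, had an element at a gene end in the 20 h list but none in the 12 h list, against 8.67% of protein-coding genes, and P16, PM27 and SM37 had had one at 8 h. The genes erg and msp130, named after their values were seen, had one in the 12 h list but none in the 20 h list, against 5.14%, and erg had had one at 8 h.

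Among other mesoderm genes GATAc, which encodes a GATA factor of nonskeletogenic mesoderm, had the greatest change of any list gene. Its neighbourhood (gene at NW_022145612.1, 11500266 to 11556165) held 2 elements at 12 h and 17 at 20 h, with both earlier ones kept. Of the 15 new regions 13 lay within the gene, and their widths ran from 410 bp (11532741 to 11533150) to 1140 bp (11548211 to 11549350). Only 4 of the 15 overlapped an 8 h element, and neither end of the gene had an element at either stage. The longest unbroken row of new regions in the genome, 18 from 11523551 to 11591690, began inside GATAc and ran past its upper end. gcm, a regulator of pigment cells, went from 3 to 6 with 2 kept, 1 lost and 4 new, and prox1, a homeobox gene, from 1 to 2.

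Endoderm and gut genes gained at 9 of 12 and fell at none, with 27 kept, 8 lost and 48 new regions. Of the 48 new regions 13 had been called at 8 h. FoxA (NW_022145611.1, 31436173 to 31439051) kept 2 and added 6, none of the 6 called at 8 h. GATAe, a GATA factor gene of endoderm, kept 2 and added 7. wnt1, which encodes a Wnt ligand, kept 2, lost 1 and added 8, of which 4 had been called at 8 h. The homeobox genes lox and eve each added 3. The gut gene Endo16, chosen after its values were seen, had 2 elements at 12 h and 4 at 20 h without sharing one of them.

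Ectoderm genes gained at 13 of 19, with 39 kept, 11 lost and 53 new regions. Of the 53 new regions 19 had been called at 8 h. The 4 with fewer, named after their values were seen, were cyiiib, CyIIIa, Lim1 and Not. Dlx, a homeobox gene of the ectoderm that stands in the endoderm list too (NW_022145612.1, 55287731 to 55304051), kept 4 elements and added 9, of which 4 lay in the gene. Tbx2/3 (NW_022145605.1, 26739315 to 26775399) kept 5 and added 8. It lay in a dense field of new regions: a cluster of 22 regions with 17 new (26762431 to 26809270) was followed by one of 31 regions with 24 new (26814351 to 26877510), with no lost region in either. With kept regions included, 9 of the 22 and 16 of the 31 had been called at 8 h. IrxA, an Iroquois homeobox gene, added 6 and lost 1, and a cluster over it (NW_022145614.1, 5932521 to 5967610) held 13 new, 2 kept and 1 lost. BMP2/4, a ligand gene of the dorsal-ventral axis, kept 2 and added 5, and FoxG, a forkhead gene, kept 1 and added 4. spec2c went from 2 to 6. The largest fall was that of the cytoplasmic actin gene cyiiib, which lost all 3 elements and had none at 20 h, and its relative CyIIIa went from 6 to 4.

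Apical and neural genes gained at 6 of the 6 placed out of 31 symbols, with 17 kept, 2 lost and 21 new regions. Of the 21 new regions 8 had been called at 8 h. delta, which encodes a Notch ligand, went from 1 to 6. FoxJ1, a regulator of motile cilia, kept 4 and added 4, and otx, a homeobox gene, kept 6, lost 2 and added 6. AnkAT-1, a gene of the apical tuft, kept 1 and added 3. NK2.1 and SoxB2 went from 2 to 4 and from 3 to 4. Among the 12 early zygotic genes 7 gained and none fell. SpRunt-1, a Runt family gene (NW_022145607.1, 7888965 to 7924680), kept 3, lost 1 and added 6, all 6 inside the gene. Ets4 went from 3 to 6, and Wnt8, a Wnt ligand gene, from 4 to 6.

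Signalling genes gained at 7 of 9 and fell at 1, DVR1 (from 2 to 1, named after its values were seen), with 16 kept, 3 lost and 32 new. Of the 32 new regions 14 had been called at 8 h. FGFR, a receptor gene, kept 1 and added 4 inside its body, none of them called at 8 h. Sdc, which encodes syndecan, a surface proteoglycan, went from 7 to 11, and hh, which encodes a Hedgehog ligand, from 0 to 2. The 25 homeobox, forkhead and Sox genes, most of them members of the lists above, gained at 21 and fell at 2, Lim1 and Not. soxd1 among them went from 3 to 8.

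**Figure D4:**
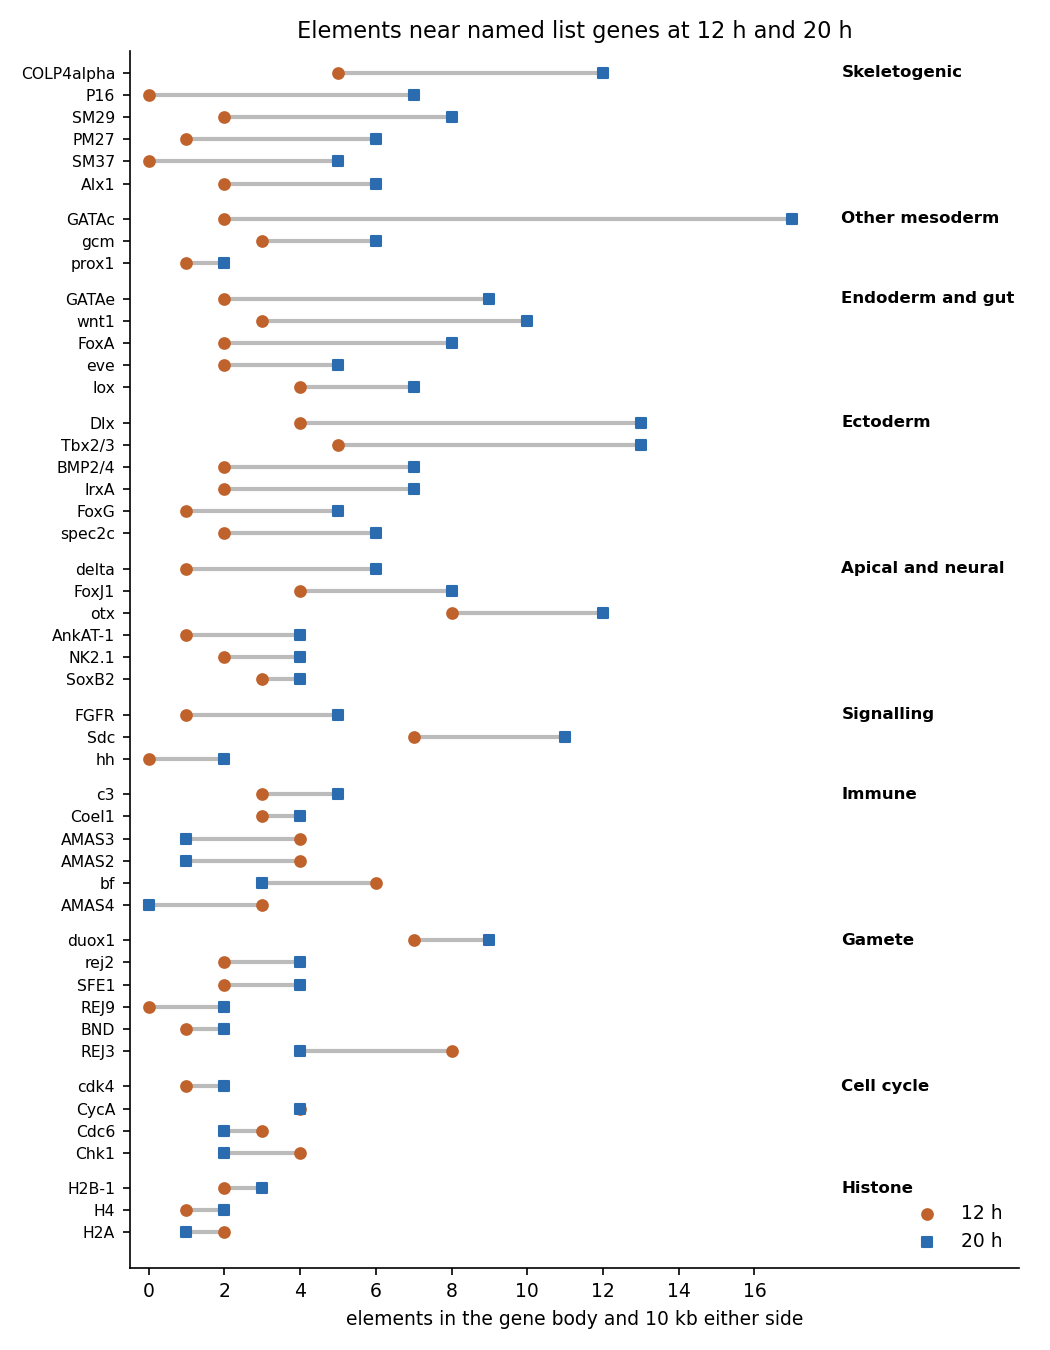
Number of elements in the neighbourhood of list genes (gene and 10 kb beyond each end) at 12 h (circles) and 20 h (squares), up to 6 genes per list with the largest differences. Skeletogenic, mesoderm, endoderm, ectoderm, apical and signalling genes lie to the right at 20 h, GATAc the farthest at 17, while AMAS2, AMAS3, AMAS4, bf and REJ3 lie 3 or more to the left.

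Immune and coelomocyte genes, named for the cells of the body cavity, had fewer elements at 5 of 8 and more at 3. Their neighbourhoods had 12 kept, 16 lost and 7 new regions. A fall of 3 was seen at 4 of the 8, against 1.59% of protein-coding genes, and 3.61% of those with a symbol, with a fall of 3 or more. AMAS2 and AMAS4, neighbouring genes for amassins, clotting proteins of coelomocytes (NW_022145609.1, 35070322 to 35079211 and 35079892 to 35086909), lost the same 3 elements, of 510, 610 and 550 bp, which are counted for both. AMAS3 on another scaffold lost 3 of 4, all 3 of them called at 8 h. bf, which encodes complement factor B, lost 3 of 6 and c3, the complement component 3 gene, lost 1 and added 3. Coel1 kept 2, lost 1 and added 2, going from 3 to 4. The remaining genes, named after their values were seen, were NFkB with 1 and 2 elements and SRCR12 with 4 and 3. With the neighbourhood widened to 50 kb, fewer elements were counted at 3 of the 8 and more at 4, so the direction of most of the list depends on that distance.

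**Figure D5:**
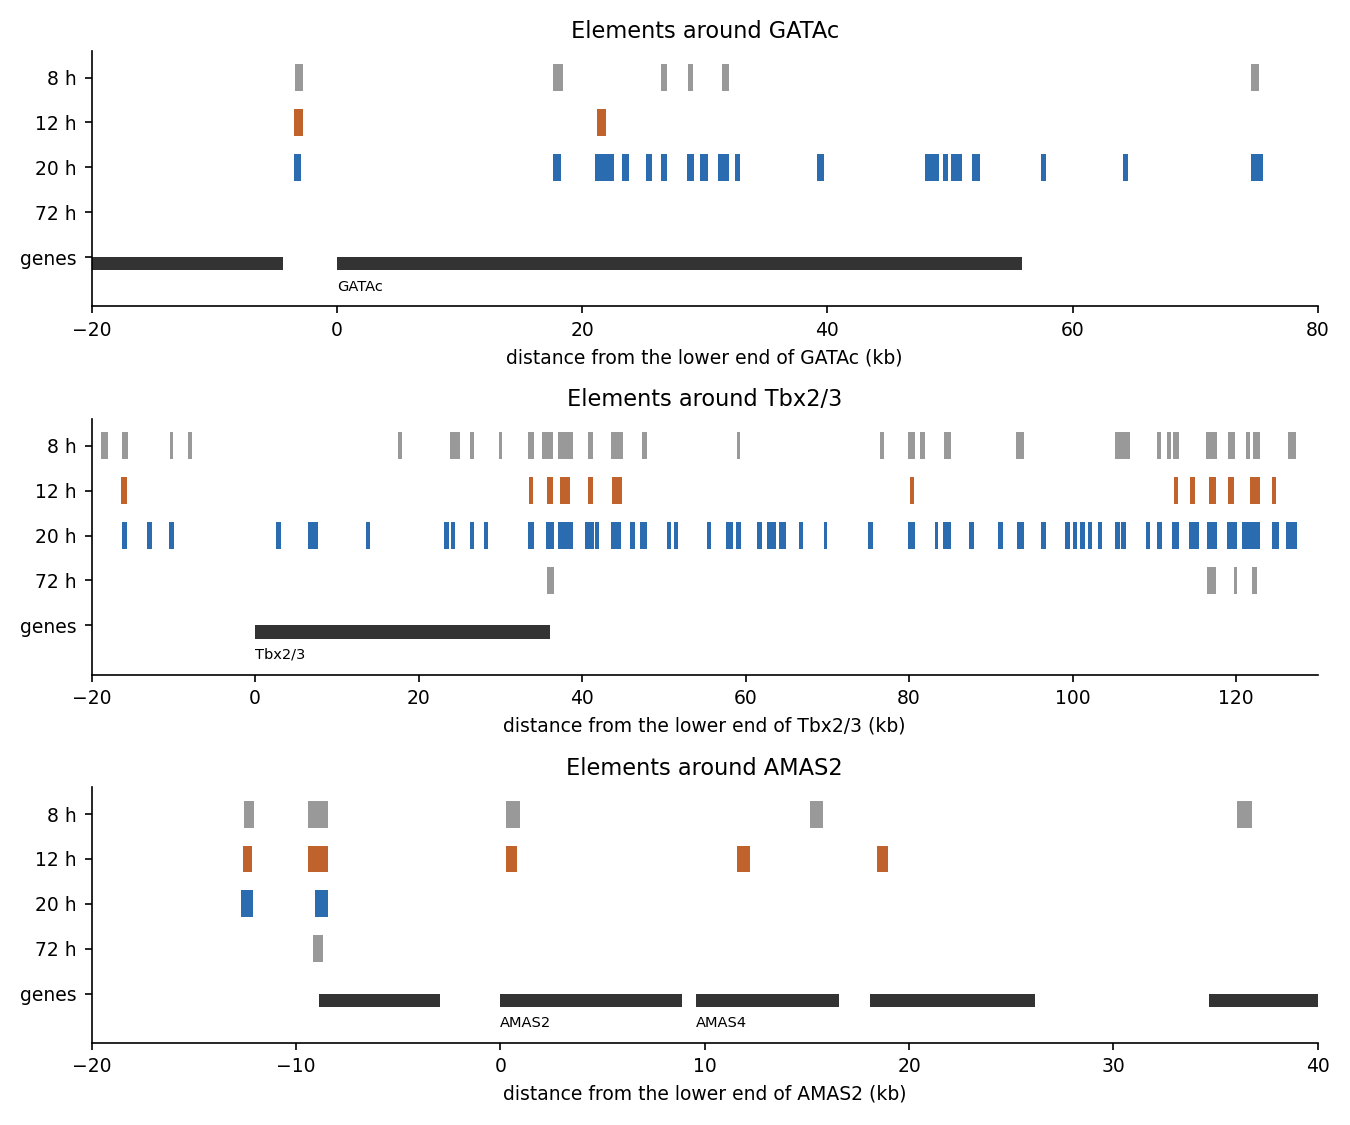
Elements of the 8 h, 12 h, 20 h and 72 h lists around GATAc, Tbx2/3 and AMAS2, with annotated genes as dark bars, by distance in kb from the lower end of the gene. At 20 h GATAc has 17 elements in its neighbourhood and the space above Tbx2/3 is densely filled, whereas 3 elements in and above AMAS2 are listed at 12 h and not at 20 h.

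Gamete genes lay nearer to all protein-coding genes than the developmental lists did. Of 15, 6 had more, 2 (REJ3 and, named after its values were seen, vasa) fewer and 7 the same number. These are 40% with more and 13.3% with fewer. Of all protein-coding genes 33.5% had more and 22.5% fewer, and of those with a symbol 51.8% and 21.7%. The gamete neighbourhoods had 27 kept, 15 lost and 19 new regions. REJ3, a receptor gene for egg jelly, had the largest fall, from 8 to 4, with 4 of its 5 lost regions inside the gene. duox1 went from 7 to 9, and rej2 from 2 to 4 with a gene-end element at 8 h and 20 h but not at 12 h. REJ9 went from 0 to 2, SFE1 from 2 to 4 and BND from 1 to 2. The 4 cell cycle genes are too few to set beside these shares. Among them the checkpoint kinase gene Chk1 went from 4 to 2 and the replication gene Cdc6 from 3 to 2. CycA kept its 4 elements and cdk4 went from 1 to 2. The 3 histone genes had 1 kept, 4 lost and 5 new regions, H2A going from 2 to 1 and H4 and H2B-1 from 1 to 2 and from 2 to 3. H2A and H4 lie within each other's neighbourhoods, and histone genes exist in many copies.

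Outside the lists, the genes with a symbol and the most new regions were Mir2003, a microRNA gene with 0 elements at 12 h and 7 at 20 h, and Elk, an Ets family gene, and FSCN1, an actin-bundling fascin gene, each with 7 new, 1 lost and 4 kept. An 8 h call had been made for 4 of the new regions at Mir2003, 1 at Elk and 3 at FSCN1. Klf7, a Krüppel-like factor gene, had 6 new regions, none called at 8 h. SPIH, an ion channel gene of sperm, and SpP19L had 5 each, eif4a and sfk3 4 each, and the microRNA gene Mir2001 4 with none at 12 h. The tRNA genes TRNAG-UCC (6 new), TRNAN-GUU (5) and TRNAD-GUC on NW_022145607.1 (4) were the others. The most lost regions lay at TRNAY-GUA on NW_022145598.1 (5 lost, 2 kept), at arc2 (4 lost, nothing left at 20 h) and at VEB4 (4 lost, 3 kept). The translation factor gene eif4e1 lost 3 and kept 1, and the microRNA gene Mir981 lost all 3. The other 7 were tRNA genes with 3 lost regions each, TRNAD-GUC on NW_022145612.1, TRNAE-CUC, TRNAF-AAA, TRNAL-AAG, TRNAL-UAG, TRNAQ-UUG and TRNAT-AGU.

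Dense fields of new regions were found at unnamed genes as well. A cluster of 25 with 20 new (NW_022145602.1, 26153121 to 26217350) covered LOC578134, and one of 32 with 19 new and 13 kept (NW_022145601.1, 12496381 to 12571320) covered LOC581970 and LOC592057. A cluster of 15 with 13 new (NW_022145611.1, 18064751 to 18106750) lay 13118 bp from NK2.2, a homeobox gene. A row of 16 new regions (NW_022145598.1, 4295161 to 4464560) crossed LOC754118 and LOC582631, and 4 of the 16 had been called at 8 h. In the clusters of 25, 32 and 15, kept and lost regions included, 10, 10 and 5 had been called at 8 h.

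The clusters with the most lost regions were smaller. Those on scaffolds with placed genes lay at no gene with a symbol, but only 4.18% of placed genes have one, and 249 of the 24774 protein-coding ones. The first held 9 lost regions and no other (NW_022145538.1, 324781 to 353220), on a scaffold where genes were not placed. The next held 8 lost, 2 kept and 1 new at LOC115918502 (NW_022145596.1, 21066321 to 21085400). A cluster of 7 lost regions and no other lay at LOC115924102 (NW_022145600.1, 23865401 to 23879890), and 7 lost beside 1 new at LOC580999 and LOC115921774 (NW_022145595.1, 27259521 to 27274980). A cluster at LOC105436742, LOC105436741 and LOC763537 had 7 lost and one at LOC105438376, LOC115922581 and LOC115922582 had 6. The longest row of lost regions, 20 over 162890 bp (NW_022145597.1, 27850331 to 28013220), crossed LOC581458, LOC100888395, LOC115922752 and LOC580450, and 18 in a row lay on NW_022145538.1. A row of 13 (NW_022145603.1, 10278451 to 10686810) ran through an array of 87 annotated genes of which 79 were pseudogenes.

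The widest new region, 2140 bp at LOC592113 (NW_022145615.1, 2180831 to 2182970), was called at 72 h and not at 8 h. The next were 2050 bp wide at LOC115922327, called at neither, and 2040 bp at LOC100888173 and LOC100894142, called at 8 h. The widest lost region, 2430 bp (NW_022145530.1, 115521 to 117950), lay on a scaffold where genes were not placed and had been called at 8 h, and the next, 2260 bp, lay 4992 bp from LOC105445291 and was called at no other stage. The third, of 1940 bp, lay 34866 bp from LOC576506 and had been called at 8 h.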

How the data were processed

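The authors deposited 1 list of dREG peaks per stage, named in the labels of each PRO-seq library of that stage. The labels describe the 12 h and 20 h libraries as earlier samples processed again on genome version Sp 5.0. Each deposited list gives only positions (scaffold, start, end, in steps of 10 bp), with no score, read count or replicate. The sources used here do not give the aligner, the classifier's settings or how libraries were pooled. The other 4 of 17 libraries, of quick PRO-seq, were not analysed here.

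Positions are printed 1-based, and touching elements were not counted as overlapping. Shares have Wilson and medians exact binomial 95% intervals (statsmodels 0.14.6, scipy 1.17.1, pandas 2.3.3), which cover counting error only. The scripts were tested on simulated lists. Regions per Mb were taken up to the last listed element of a scaffold.

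Genes came from the RefSeq table of Spur_5.0 as used here, which has no scaffold, strand, exon or description. Its 21 runs of at least 900 genes with rising starts were each placed on the scaffold with the highest share of gene ends within 500 bp of an 8 h element, 30064 of 33490 genes. That share was 1.66 to 3.73 times the share on the next best scaffold, and 258 of 288 pieces of 100 genes had their own scaffold as the best. As a check without elements, the chosen scaffolds followed the order of their accession numbers down the table in 20 of 20 steps. Only 249 of the 24774 placed protein-coding genes have a symbol other than a locus number.

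Genes were named by rule: up to 6 per list with the largest difference, the 12 outside the lists with the most new and the 12 with the most lost regions (1 where neighbourhoods overlap), and those at the largest clusters, longest rows, widest and farthest regions. Named outside this rule, after values were seen, were the genes of the 1 Mb windows and SM50, erg, msp130, Endo16, cyiiib, CyIIIa, Lim1, Not, DVR1, NFkB, SRCR12 and vasa. The members and lists were chosen with earlier results of these data known. Alternatives varied the overlap rule, list filters, cluster gap and size, gene-end window and neighbourhood. Planned keyword classes and promoter sequences were not used here.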

Additional observations from a re-analysis of the deposited data

How the results depend on the processing

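No paired analysis was possible because each stage has 1 pooled list with no column per library. Of 102 recomputed values 39 stayed within the interval or 1.5-fold range of the reported one, 63 moved, and no kept-to-other width ratio fell below 1. Requiring 50% overlap of both elements gave kept shares of 54.4% at 12 h and 44.0% at 20 h, a kept-to-lost width ratio of 1.35 and median gaps to a kept element of 15900 bp (lost) and 11505 bp (new). Allowing gaps of 200 bp gave kept shares of 61.4% and 50.4%. With elements of at least 500 bp alone, the kept shares were 59.3% and 50.2%, both width ratios 1.35, the gaps 18130 and 12350 bp, the shares in clusters 39.9% (new) and 21.9% (lost), and the lost neighbours of lost regions 35.4%. Gene-end shares were then 54.0% (kept), 21.5% (lost) and 17.3% (new), the 8 h shares 64.8% (lost) and 37.6% (new), and the 72 h share of kept regions 23.8%. With the 20 h list cut to its widest 30570 elements, the kept shares were 52.7% and 53.1%, the kept-to-lost ratio 1.45, the gaps 17810 and 11220 bp, the shares in clusters 42.3% and 24.3%, and like neighbours 47.2% (new) and 43.0% (lost). On the 21 large scaffolds 60.9% of 12 h elements were kept. Joining elements within 100 bp gave shares in clusters of 43.3% and 25.9% and new neighbours of new regions of 50.5%. Shares in clusters were 20.9% and 9.34% with gaps of 2 kb, 72.9% and 56.3% with a wider gap, and 19.9% and 7.84% for at least 5 regions. Gene-end shares of kept, lost and new were 47.3%, 11.4% and 11.9% within 100 bp, 53.6%, 24.1% and 20.8% within 1000 bp, and 46.6%, 13.97% and 14.22% at protein-coding genes. Lost and new thus exchange places in the first and the last of these settings. Requiring 50% coverage gave 8 h shares of 53.8% (lost) and 30.6% (new) and a 72 h share of 11.1% (kept). Protein-coding genes with more elements numbered 4821 in gene bodies and 12561 with 50 kb, and those with fewer 3625 in gene bodies. In the equal-length lists 6171 had more and 7499 fewer, which turns the majority. Alternatives for gene lists were chosen after seeing the data. Of the 68 developmental genes fewer elements were seen at 8 with wide elements, with equal lists and by nearest gene, and at 9 in gene bodies. Of the immune genes 1 had more with wide elements and with equal lists, and 3 had fewer with 50 kb. With no depth, score or replicate, a missing element cannot be told from one just under the caller's threshold, and gene results rest on inferred scaffolds.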
